A study of Mus musculus with 8 samples.

Results

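The genes that move zinc, iron, copper and manganese across membranes, together with the metallothioneins that hold these metals in the cell, were followed in ventral prostates of mice with and without human SKP2. Members were all listed genes of the SLC11, SLC30, SLC31, SLC39 and SLC40 solute carrier families and Mt1, Mt2 and Mt3, chosen by symbol. The rule found 32 of the 36333 listed genes. They were 10 ZnT (SLC30) genes, 14 ZIP (SLC39) genes, 2 NRAMP (SLC11) genes, 2 copper transporter (SLC31) genes, Slc40a1 and 3 metallothioneins. A filter on low values, which asked that 4 or more of the 8 samples reach 1 TPM, was passed by 27 of them.

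Bulk RNA-seq libraries were made from ventral lobes of 4 hSKP2-KI and 4 WT mice, one library per mouse, all 12 months old. The paper bred knock-in males from heterozygous females and wild-type FVB/N males. In hSKP2-KI mice, a P2A-linked human SKP2 coding sequence sits in exon 1 of the mouse probasin gene, so its expression follows the endogenous probasin promoter of prostate epithelium. WT mice were without the insertion. The paper does not give the strain of the founders or the number of crosses to FVB/N. The study made several knock-in lines, and the labels do not say which line or lines gave these mice.

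As a check of the labels, mouse Skp2 was 43.4, 51.1, 37.3 and 60.6 TPM in hSKP2-KI replicates 1 to 4 and 2.01, 1.05, 1.67 and 2.27 TPM in WT replicates 1 to 4. How reads of the human sequence were assigned is not given in the sources used here. Pbsn, the probasin gene, was at 97.8, 93.4, 93.0 and 174 TPM in hSKP2-KI and 3980.0, 9232, 4218 and 6506 TPM in WT samples. The ventral prostate secretory markers Sbp, Sbpl, Spink1, Pbsn and Defb50 were all detected, with a summed TPM of 341900 to 372300 in hSKP2-KI and 430800 to 478200 in WT samples, and none of 5 seminal vesicle genes reached 1 TPM in any sample. TPM, the unit of all levels here, corrects reads for transcript length and gives each library the same total, so the read depth behind a value is unknown. Fold changes are log2(TPM + 1) differences, hSKP2-KI minus WT, and understate the change of low genes. Since the total is fixed, lower values of very abundant transcripts raise all other values. Over the 13080 tested genes the median log2 fold change was 0.23 with TPM as deposited and -0.01 after median-ratio scaling, which divides each library by its median ratio to the average library. Both are given here, and a gene is said to rise or fall only where limma gave an adjusted p (Benjamini-Hochberg, over all tested genes) under 0.05 in the scaling named. Of the 5 secretory markers, Defb50 rose and Spink1 and Pbsn fell with TPM as deposited, and only Pbsn fell after median-ratio scaling. Sbp and Sbpl passed neither test, though each was lower in every hSKP2-KI sample than in every WT sample. Of all tested genes, 32.7% rose and 1.23% fell as deposited, and 6.92% and 4.25% did so after median-ratio scaling. In bulk tissue, fewer cells of a type and less RNA per cell cannot be told apart.

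Zinc enters the cytosol from outside the cell or from vesicles through ZIP proteins, and leaves it, out of the cell or into vesicles and the Golgi, through ZnT proteins. Metallothioneins are small proteins in which clusters of cysteines bind zinc and copper, and their genes are switched on by the zinc-sensing factor MTF1 at metal response elements. Prostate is known as a zinc-rich gland, in rodents chiefly in the dorsolateral rather than the ventral lobes, and prostate secretion contains zinc.

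Mt1, Mt2 and Mt3 lie in a cluster on chromosome 8, plus strand, in the GRCm38 build. Their coding sequences are shown because the measurements that follow depend on telling these close relatives apart. Each has 3 exons, and capitals mark the 20 cysteine codons (TGT or TGC), which make up 32.8% of the 61 residues of Mt1 and of Mt2 and 29.4% of the 68 residues of Mt3. The sequences are GENCODE vM21 coding sequences, written 5′ to 3′.
Mt1, exons between chr8:94179311-94180193: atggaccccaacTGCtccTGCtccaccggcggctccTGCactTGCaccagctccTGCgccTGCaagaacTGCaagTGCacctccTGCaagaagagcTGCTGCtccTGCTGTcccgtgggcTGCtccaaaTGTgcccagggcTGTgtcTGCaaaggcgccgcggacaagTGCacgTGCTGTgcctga
Mt2, exons between chr8:94172848-94173427: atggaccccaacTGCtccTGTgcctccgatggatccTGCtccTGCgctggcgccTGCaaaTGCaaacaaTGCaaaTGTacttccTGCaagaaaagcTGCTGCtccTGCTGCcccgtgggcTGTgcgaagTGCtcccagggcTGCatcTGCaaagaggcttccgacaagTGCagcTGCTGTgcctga
Mt3, exons between chr8:94152800-94154010: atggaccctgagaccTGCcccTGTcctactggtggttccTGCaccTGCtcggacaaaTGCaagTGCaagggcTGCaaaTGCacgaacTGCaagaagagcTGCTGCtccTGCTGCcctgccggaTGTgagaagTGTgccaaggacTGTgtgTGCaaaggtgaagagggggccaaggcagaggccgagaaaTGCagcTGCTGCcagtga
The coding sequences of Mt1 and Mt2 were identical at 79.6% of aligned positions, Mt1 and Mt3 at 65.2%, and Mt2 and Mt3 at 67.6%. The longest run of bases shared by any pair of their transcripts was 27 bases, between Mt1 and Mt3. The paper's reads were longer than this run, so no untrimmed read matches a pair of these transcripts base for base in full. How the authors' software placed trimmed or mismatched reads is not given in the sources used here. A small exchange of such reads between the 3 genes cannot be told apart from expression.

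The promoters of Mt1 and Mt2 are shown because matches to the metal response element set them apart from most of the transporters. The core searched was TGCACNC or TGCGCNC on both strands, in RefSeq windows of 250 bases before to 50 bases after the start site (GRCm38.p6). Capitals mark matches; those reading GNGTGCA or GNGCGCA are on the minus strand.
Mt1 promoter, chr8:94178939-94179118, plus strand, 150 bases before to 30 after the start: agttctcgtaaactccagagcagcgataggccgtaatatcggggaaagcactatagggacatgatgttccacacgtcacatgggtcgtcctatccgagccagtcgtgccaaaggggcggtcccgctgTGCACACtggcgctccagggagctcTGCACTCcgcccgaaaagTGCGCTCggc
Mt2 promoter, chr8:94172368-94172647, plus strand, 250 bases before to 30 after the start: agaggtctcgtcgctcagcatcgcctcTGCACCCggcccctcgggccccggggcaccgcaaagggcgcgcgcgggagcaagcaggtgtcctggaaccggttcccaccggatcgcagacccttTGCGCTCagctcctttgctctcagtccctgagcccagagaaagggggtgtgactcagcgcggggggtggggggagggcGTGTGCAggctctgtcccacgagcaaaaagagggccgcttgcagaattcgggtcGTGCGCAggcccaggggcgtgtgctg
The Mt1 window held 3 matches and the Mt2 window 4, and the Mt3 window held 1. Of all 32851 promoter windows, 25.7% held at least 1 match, 1.97% at least 3 and 0.518% at least 4. Of the 32 members, 26 had a window in the table, and 15 of these (57.7%) held at least 1 match. Counted by window, as for all promoters, it was 16 of 31 member windows (51.6%). Slc30a1, whose product exports zinc at the plasma membrane, held 2 matches. Slc30a10, which encodes a manganese exporter, and Slc30a4, which encodes an endosomal zinc transporter, held 3 each, and a pair of those of Slc30a10 overlapped on opposite strands. The windows of Slc39a1 and Slc11a1 held none. Some GENCODE transcripts of Mt1 and Mt2 start further downstream, up to 152 and 242 bases from the RefSeq start. Bases just before the furthest of these starts lie beyond the end of the windows, so any matches there were not counted. The RefSeq gene span of Mt1, given with its values, begins 206 bases before the start site used for its window (position 94179089), so the promoter sequence shown lies within that span. A match is a string of letters and was not tested for binding.

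Mt1 and Mt2 were by far the most abundant members, above 99.6% of all tested genes in mean TPM. Mt1 (chr8:94178883-94180327) was at 885, 717, 926 and 1683 TPM in hSKP2-KI replicates 1 to 4 and at 1804, 1305, 1653 and 923 TPM in WT replicates 1 to 4. Mt2 (chr8:94172618-94173567) was at 698, 605, 757 and 1660.0 TPM in the hSKP2-KI samples and at 1938, 1233, 1686 and 853 TPM in the WT samples, in the same order. For both genes, hSKP2-KI replicates 1 to 3 lay low, 3 WT samples lay high, hSKP2-KI replicate 4 stood among the WT samples and WT replicate 4 stood near the low hSKP2-KI samples. The groups therefore overlapped, and neither gene passed the test. The log2 fold change of Mt1 was -0.47 (standard error 0.26, adjusted p = 0.172) with TPM as deposited and -0.73 after median-ratio scaling (adjusted p = 0.134). That of Mt2 was -0.67 (standard error 0.32, adjusted p = 0.114) and -0.94 after median-ratio scaling (adjusted p = 0.112). The call turned on 1 library: without hSKP2-KI replicate 4, the log2 fold changes were -0.72 for Mt1 (adjusted p = 0.0333) and -0.99 for Mt2 (adjusted p = 0.0183), and after median-ratio scaling -0.98 (adjusted p = 0.0573) and -1.25 (adjusted p = 0.0410). The labels give no reason to leave that mouse out. Its skeletal muscle markers Mb, Myh4, Myh1 and Ckm, but not Acta1, were above those of the other hSKP2-KI samples. Mb was at 0.783, 0.233, 0.195 and 21.7 TPM in hSKP2-KI replicates 1 to 4 and at 11.8 TPM in WT replicate 2. Adipocyte markers summed to 43.6, 119, 80.9 and 220 TPM in hSKP2-KI replicates 1 to 4 and to 28.5 to 170 TPM in WT samples. The part of such tissue in the metallothionein values was not tested.

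**Figure D1:**
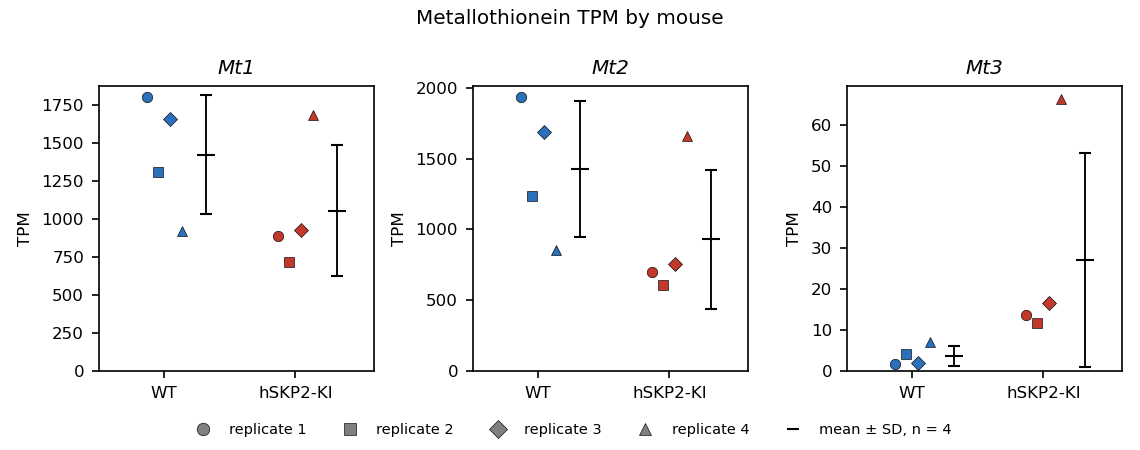
TPM of Mt1, Mt2 and Mt3 in each mouse (vertical axes, linear, starting at 0), WT in blue and hSKP2-KI in red, with marker shapes for the replicate number and black bars for the mean ± SD (n = 4). hSKP2-KI replicate 4 stands far above the other hSKP2-KI samples in all 3 panels, and the groups overlap for Mt1 and Mt2 but not for Mt3.

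The pair moved together from mouse to mouse. The ratio of Mt2 to Mt1 TPM was 0.790, 0.844, 0.818 and 0.986 in the hSKP2-KI samples and 1.07, 0.945, 1.02 and 0.924 in the WT samples in the same order, while the summed TPM of both genes ranged from 1322 to 3742, or 0.132% to 0.374% of all TPM. This ratio and the ratios below were chosen after the values were seen.

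Mt3 (chr8:94152607-94154148), first known as a growth inhibitory factor of the brain, was higher in hSKP2-KI prostates. It was at 13.8, 11.8, 16.7 and 66.2 TPM in hSKP2-KI replicates 1 to 4 and at 1.57, 4.06, 1.92 and 7.05 TPM in WT replicates 1 to 4. The lowest hSKP2-KI sample was above the highest WT sample, with hSKP2-KI replicate 4 again far above the rest. The mean was 27.1 ± 26.2 TPM in hSKP2-KI and 3.65 ± 2.52 TPM in WT prostates (SD, n = 4), 7.43-fold apart, and Mt3 rose under both scalings (log2 fold change 2.38, standard error 0.50, adjusted p = 0.00720, and 2.16 after median-ratio scaling, adjusted p = 0.0258). Without hSKP2-KI replicate 4 the hSKP2-KI mean was 14.1 ± 2.46 TPM (SD, n = 3) and the means were 3.85-fold apart, a value added after the data were seen. With each sample left out in turn the log2 fold change stayed between 1.84 and 2.70. After median-ratio scaling the adjusted p was above 0.05 without WT replicate 1 (0.0697) and without WT replicate 3 (0.0594). Relative to Mt1 in the same library, Mt3 was at a ratio of 0.0156 to 0.0394 in hSKP2-KI and 8.70e-04 to 0.00764 in WT samples, so it remained a minor metallothionein in every mouse. Mt4, of stratified epithelia, was listed at 0 in all 8 samples. The log2 fold change of Mtf1, the metal-sensing factor, was 0.11 (adjusted p = 0.485), and -0.12 after median-ratio scaling (adjusted p = 0.496).

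Across the 27 tested members, 8 rose and 1 fell with TPM as deposited, where 32.7% of all tested genes rose and 1.23% fell. The genotypes had no overlap for 8 higher and 2 lower members, against 34% and 1.03% of all tested genes. After median-ratio scaling 4 members rose and 5 fell, where the shares of all tested genes were 6.92% and 4.25%. No overlap was then seen for 4 higher and 6 lower members, against 10.3% and 8.91% of all tested genes. The median log2 fold change of the members was 0.11 with TPM as deposited and -0.15 after median-ratio scaling, below the median of all tested genes in both. Slc30a2, Slc39a4, Slc40a1 and Mt3 rose with TPM as deposited and under 3 other scalings (median-ratio, quantile, and TPM rescaled without the 20 most abundant genes), as did 4.82% of all tested genes. Slc39a8 was the member that fell under all of them, as did 1.19%.

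**Figure D2:**
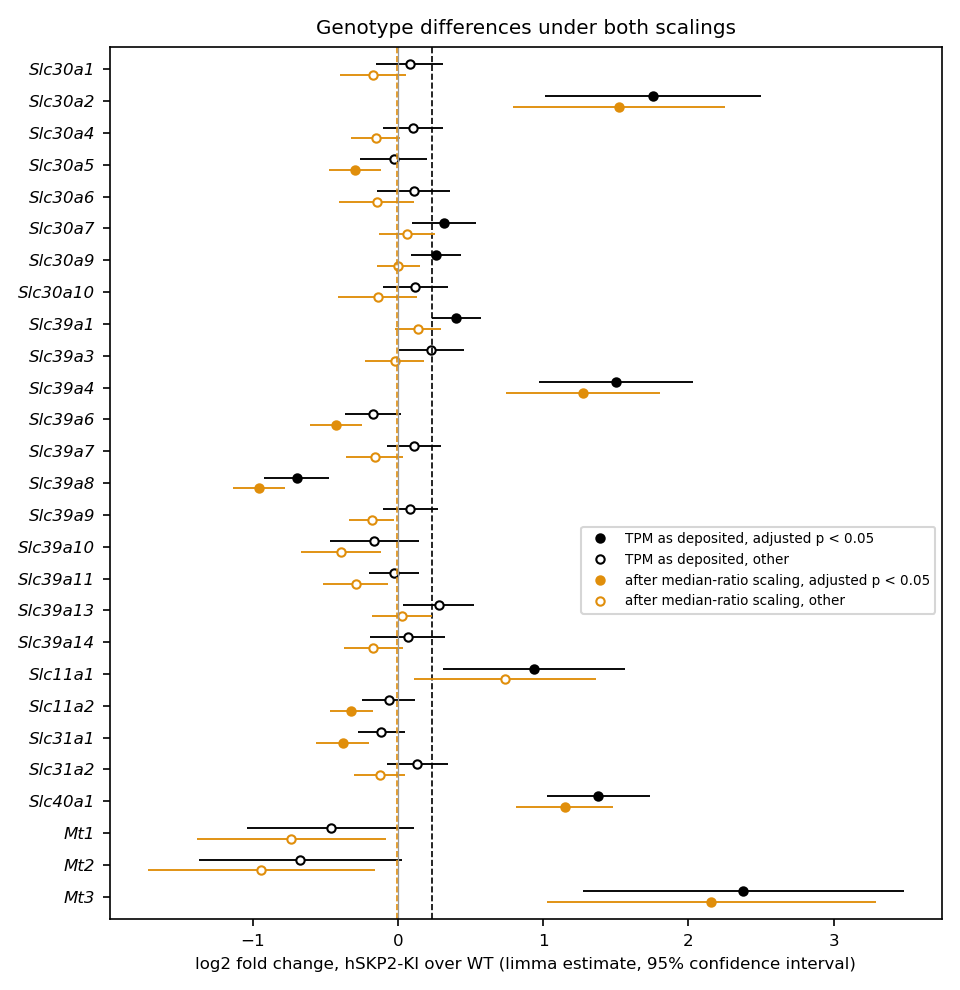
log2 fold change, hSKP2-KI over WT, of the 27 tested members (horizontal axis, limma estimate with its 95% confidence interval), with TPM as deposited in black and after median-ratio scaling in orange. Filled points have an adjusted p under 0.05 and dashed lines mark the median of all tested genes, 0.23 and -0.01: Slc30a2, Slc39a4, Slc40a1 and Mt3 lie right of both lines, Slc39a8 lies left, and most others lie near the line of their scaling.

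Among the ZnT exporters, Slc30a2 had the largest change. It encodes ZnT2, which loads zinc into secretory vesicles and is known for supplying zinc to milk. Slc30a2 (chr4:134343046-134354484) was at 26.8, 13.6, 14.6 and 27.7 TPM in hSKP2-KI replicates 1 to 4 and at 2.66, 10.0, 3.56 and 6.59 TPM in WT replicates 1 to 4. The hSKP2-KI samples formed a high pair (replicates 1 and 4) and a lower pair, and the lowest of them was above the highest WT sample. The means were 20.7 ± 7.59 and 5.70 ± 3.32 TPM (SD, n = 4), 3.62-fold apart (log2 fold change 1.76, standard error 0.34, adjusted p = 0.00486, and 1.52 after median-ratio scaling, adjusted p = 0.0194). The change with median-ratio scaling did not pass without hSKP2-KI replicate 4 (log2 fold change 1.38, adjusted p = 0.0529).

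Slc30a7 and Slc30a9 shifted by little more than the tested genes as a whole. Slc30a7, whose product brings zinc into the early secretory pathway, was at 22.9, 22.6, 25.7 and 22.2 TPM in hSKP2-KI and 15.7, 19.6, 21.0 and 18.2 TPM in WT replicates 1 to 4. Slc30a9, whose product moves zinc out of mitochondria, was at 27.3, 28.5, 31.3 and 28.2 TPM in hSKP2-KI and 22.7, 25.3, 22.7 and 24.7 TPM in WT samples. Both had no overlap and rose with TPM as deposited, Slc30a7 by 0.32 (adjusted p = 0.0333) and Slc30a9 by 0.26 (adjusted p = 0.0283) on the log2 scale. Neither passed after median-ratio scaling, where Slc30a7 was at 0.06 (adjusted p = 0.703) and Slc30a9 at 0.00 (adjusted p = 0.986). Their calls with TPM as deposited also needed nearly all mice: Slc30a7 passed in 2 and Slc30a9 in 3 of the 8 fits that left 1 sample out. The adjusted p of Slc30a7 was 0.0554, 0.0571, 0.0816 and 0.0534 without hSKP2-KI replicates 1, 2, 3 and 4 and 0.0699 and 0.0693 without WT replicates 1 and 4. For Slc30a9 it was 0.0573, 0.0712 and 0.0569 without hSKP2-KI replicates 2, 3 and 4 and 0.0581 and 0.0744 without WT replicates 1 and 3.

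The most abundant exporter was Slc30a5, a partner of Slc30a6 in delivering zinc to enzymes of the secretory pathway, at 44.5, 47.4, 52.1 and 48.5 TPM in hSKP2-KI and 44.2, 60.6, 44.2 and 48.9 TPM in WT replicates 1 to 4. Its log2 fold change was -0.03 (adjusted p = 0.83) with TPM as deposited, and it fell after median-ratio scaling (-0.29, adjusted p = 0.0435). Slc30a1, Slc30a4, Slc30a6 and Slc30a10 were between 10.8 and 25.6 TPM in all samples. They did not pass either test, and their log2 fold changes of 0.08 to 0.12 with TPM as deposited became -0.17 to -0.14 after median-ratio scaling. Slc30a3, the zinc transporter of synaptic vesicles, was at most 0.114 TPM, and Slc30a8, that of insulin granules, was listed at 0 in all 8 samples.

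Of the ZIP importers, Slc39a4 rose and Slc39a8 fell. Slc39a4 (chr15:76612383-76618506) encodes ZIP4, the zinc uptake protein of the intestine that is mutated in acrodermatitis enteropathica. It was at 18.3, 11.9, 9.21 and 14.3 TPM in hSKP2-KI replicates 1 to 4 and at 2.12, 4.16, 5.49 and 4.83 TPM in WT replicates 1 to 4. All hSKP2-KI samples were above all WT samples, with means of 13.4 ± 3.85 and 4.15 ± 1.46 TPM (SD, n = 4), 3.24-fold apart (log2 fold change 1.50, standard error 0.24, adjusted p = 0.00247, and 1.27 after median-ratio scaling, adjusted p = 0.0118).

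Slc39a8 (chr3:135816882-135888572) encodes ZIP8, which takes up zinc and manganese. It was at 34.7, 31.4, 28.5 and 31.4 TPM in hSKP2-KI replicates 1 to 4 and at 43.0, 57.3, 51.8 and 55.5 TPM in WT replicates 1 to 4. Every hSKP2-KI sample was below every WT sample, and the means were 31.5 ± 2.54 and 51.9 ± 6.36 TPM (SD, n = 4), a ratio of 0.607 (log2 fold change -0.70, standard error 0.10, adjusted p = 0.00173, and -0.96 after median-ratio scaling, adjusted p = 2.22e-04). It was called in all 8 fits that left 1 sample out, with log2 fold changes of -0.78 to -0.65. Within a library, where scaling has no part, the ratio of Slc39a4 to Slc39a8 TPM was 0.527, 0.380, 0.323 and 0.455 in hSKP2-KI replicates 1 to 4 and 0.0492, 0.0726, 0.106 and 0.0870 in WT replicates 1 to 4. Slc39a8 thus stayed the more abundant of the pair in each mouse, by a smaller margin in the hSKP2-KI mice.

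**Figure D3:**
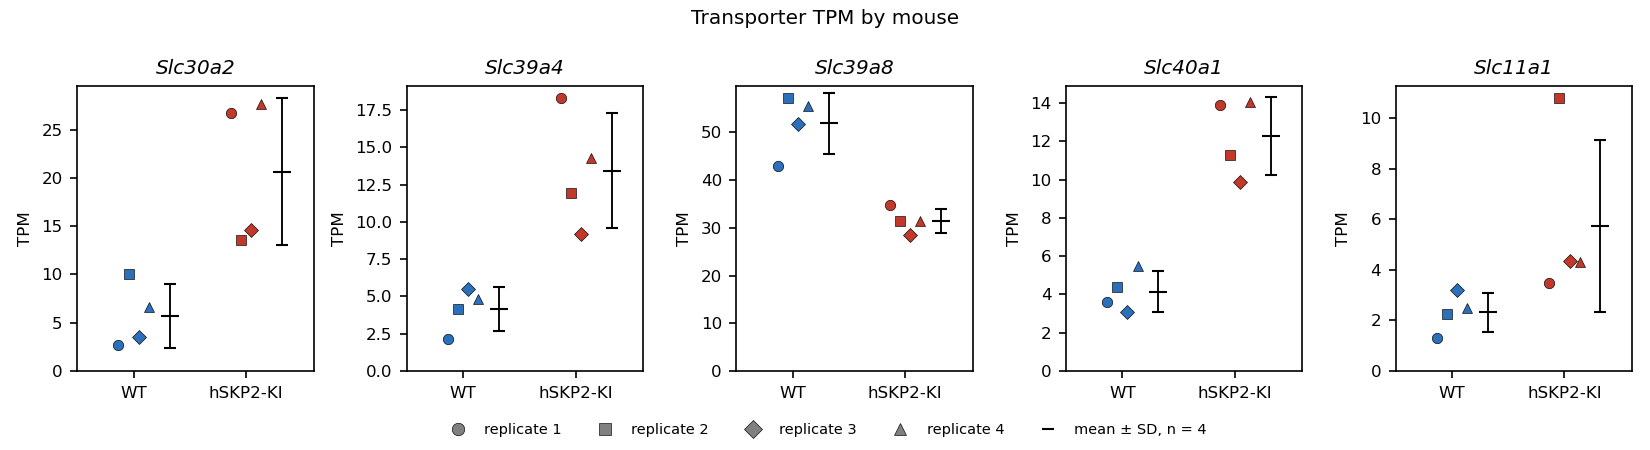
TPM of Slc30a2, Slc39a4, Slc39a8, Slc40a1 and Slc11a1 in each mouse (vertical axes, linear, starting at 0), WT in blue and hSKP2-KI in red, with marker shapes for the replicate number and black bars for the mean ± SD (n = 4). The groups do not overlap in any panel, Slc39a8 is the panel in which hSKP2-KI is lower, and the hSKP2-KI mean of Slc11a1 is drawn up by replicate 2.

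The remaining ZIP genes changed less, or their calls depended on the scaling. Slc39a7, which encodes ZIP7 of the endoplasmic reticulum and Golgi, was the most abundant transporter, at 291, 312, 267 and 265 TPM in hSKP2-KI and 264, 278, 235 and 277 TPM in WT replicates 1 to 4, with overlap. Its log2 fold change was 0.11 (adjusted p = 0.315) with TPM as deposited and -0.16 after median-ratio scaling (adjusted p = 0.266). Slc39a1 (chr3:90248190-90253613), which encodes ZIP1, a plasma membrane zinc importer studied in prostate, was at 73.3, 83.6, 69.1 and 75.1 TPM in hSKP2-KI and 53.8, 58.9, 56.8 and 57.1 TPM in WT samples. It rose with TPM as deposited without overlap (log2 fold change 0.40, standard error 0.08, adjusted p = 0.00477) but not after median-ratio scaling (0.14, adjusted p = 0.245).

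Slc39a9, for a ZIP of the Golgi and cell surface, was at 55.7, 55.0, 63.5 and 58.5 TPM in hSKP2-KI and 47.9, 59.6, 57.4 and 54.9 TPM in WT replicates 1 to 4. Slc39a11, for a ZIP of a separate branch of the family, was at 49.8, 52.7, 55.7 and 47.0 TPM in hSKP2-KI and 55.2, 48.2, 53.5 and 52.3 TPM in WT samples. Neither passed the test. The log2 fold change of Slc39a9 was 0.08 (adjusted p = 0.440), or -0.18 (adjusted p = 0.117) with median-ratio scaling, and that of Slc39a11 was -0.03 (adjusted p = 0.787), or -0.29 (adjusted p = 0.0867). Exons of Slc39a9 overlap 459 bases of Erh, and those of Slc39a13 215 bases of Psmc3, both on the opposite strand. Since the strand used in counting is not given, reads there cannot be told apart. On the same strand, exons of Slc39a7 overlap 2084 bases of Gm20427, which is not among the listed genes. Those of Slc39a2 overlap 151 bases of Mettl17, which was at a mean of 24.2 TPM. Strand does not separate reads in these same-strand overlaps.

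Slc39a6 and Slc39a10, a closely related pair for zinc uptake at the plasma membrane, gave lower values relative to other genes. Slc39a6 was at 12.2, 12.0, 12.6 and 12.4 TPM in hSKP2-KI and 13.3, 15.0, 15.1 and 12.7 TPM in WT replicates 1 to 4, with each hSKP2-KI sample below each WT sample. Its log2 fold change was -0.17 (adjusted p = 0.135) with TPM as deposited, and it fell after median-ratio scaling (-0.43, adjusted p = 0.0121). Slc39a10 was at 4.60, 5.77, 5.93 and 6.04 TPM in hSKP2-KI and 5.37, 7.45, 7.61 and 5.29 TPM in WT samples, a difference of -0.16 on the log2 scale (adjusted p = 0.348). After median-ratio scaling its groups did not overlap, but it did not pass the test (log2 fold change -0.39, adjusted p = 0.0672).

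Slc39a3, Slc39a13, which encodes a ZIP of vesicles that matters in connective tissue, and Slc39a14, which encodes ZIP14 for zinc, iron and manganese, were between 5.79 and 17.5 TPM and passed neither test. Below the filter, Slc39a12, a ZIP gene best known from brain, was at 0.381, 0.624, 0.290 and 0.211 TPM in hSKP2-KI and 0.150, 0.162, 0.0611 and 0.0921 TPM in WT replicates 1 to 4. Its groups did not overlap and the mean log2(TPM + 1) differed by 0.29 (two-sided exact permutation test, unadjusted p = 0.0286, the smallest that the 70 assignments of 4 mice against 4 allow). At this level a few reads may carry the difference, and the depth is not known. Slc39a2 was at 0.269 to 0.393 and 0.157 to 0.378 TPM in hSKP2-KI and WT samples (two-sided exact permutation test, unadjusted p = 0.343), and Slc39a5 was listed at 0 in all 8 samples.

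**Figure D4:**
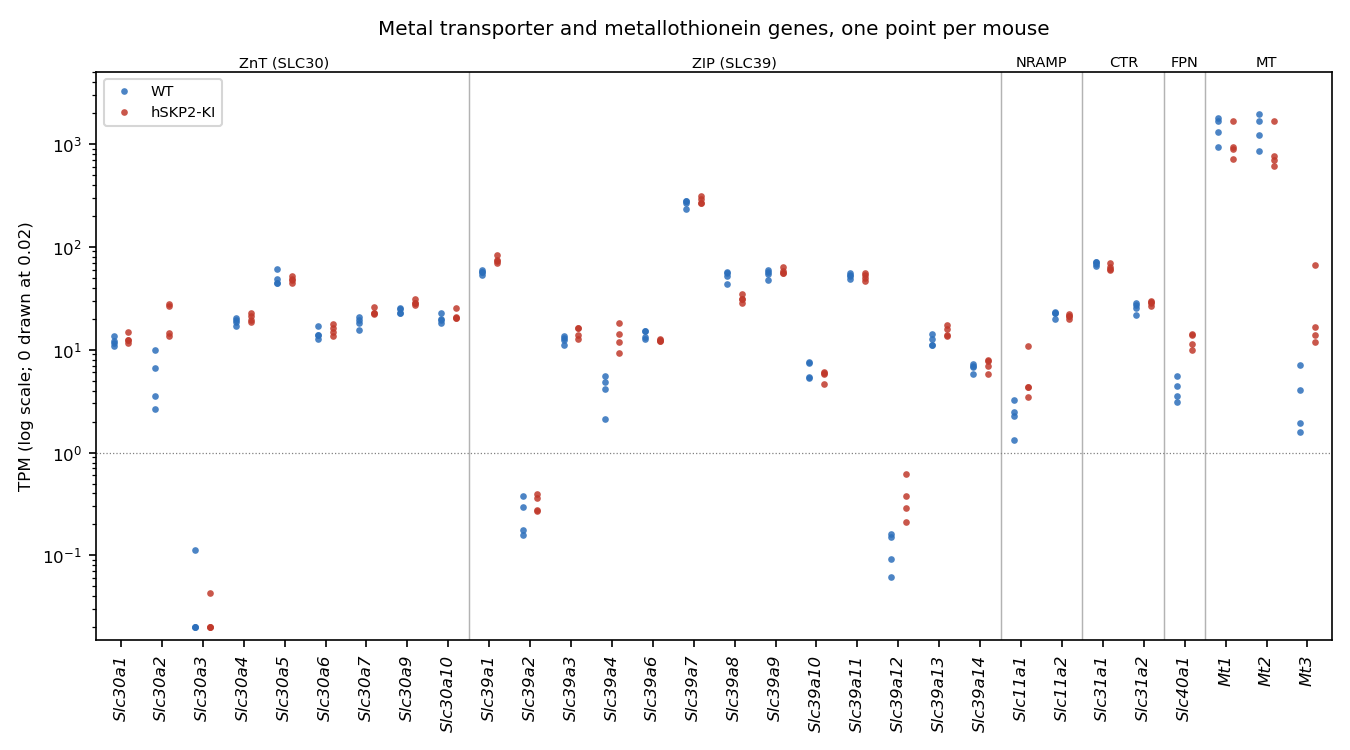
TPM of the 30 members with a value above 0 in any sample (vertical axis, log scale, values of 0 drawn at 0.02), one point per mouse, WT in blue and hSKP2-KI in red, grouped by family (FPN, ferroportin; MT, metallothionein). Mt1 and Mt2 lie highest and Slc39a7 next, most transporters lie between 4 and 100 TPM with the colours close together, and the dotted line marks 1 TPM.

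The iron exporter Slc40a1 was another member with a large rise. Slc40a1 (chr1:45908070-45926532) encodes ferroportin, the known route of iron out of cells, prominent in macrophages and gut epithelium. It was at 13.9, 11.3, 9.87 and 14.1 TPM in hSKP2-KI replicates 1 to 4 and at 3.58, 4.40, 3.08 and 5.51 TPM in WT replicates 1 to 4. The groups did not overlap, with means of 12.3 ± 2.05 and 4.14 ± 1.06 TPM (SD, n = 4), 2.97-fold apart (log2 fold change 1.38, standard error 0.16, adjusted p = 6.38e-04, and 1.15 after median-ratio scaling, adjusted p = 0.00303). Leaving out any 1 sample gave log2 fold changes of 1.28 to 1.50, with adjusted p of at most 0.00336.

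Slc11a1 (chr1:74375014-74386057) encodes NRAMP1, which pumps iron and manganese out of the phagosomes of macrophages. It was at 3.47, 10.8, 4.34 and 4.30 TPM in hSKP2-KI replicates 1 to 4 and at 1.31, 2.26, 3.21 and 2.48 TPM in WT replicates 1 to 4. With TPM as deposited the groups did not overlap, though by a small margin, and replicate 2 of hSKP2-KI was well above the rest. After median-ratio scaling the groups overlapped, with hSKP2-KI replicate 1 at 3.25 and WT replicate 3 at 3.58. Slc11a1 rose with TPM as deposited (log2 fold change 0.94, standard error 0.28, adjusted p = 0.0289) and did not pass after median-ratio scaling (0.74, adjusted p = 0.121). Nor did it pass without WT replicate 1, the lowest sample (log2 fold change 0.78, adjusted p = 0.0821). Without hSKP2-KI replicate 2 the log2 fold change was 0.63 (adjusted p = 0.0404).

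Slc11a2, which encodes DMT1 for iron uptake, was at 21.1, 22.0, 21.4 and 20.04 TPM in hSKP2-KI and 19.7, 22.9, 22.7 and 23.5 TPM in WT replicates 1 to 4. The copper importer gene Slc31a1 was at 63.4, 61.4, 69.5 and 59.6 TPM in hSKP2-KI and 68.0, 70.6, 71.0 and 65.4 TPM in WT replicates 1 to 4. With TPM as deposited the log2 fold change of Slc11a2 was -0.06 (adjusted p = 0.532) and that of Slc31a1 was -0.11 (adjusted p = 0.220). Both fell after median-ratio scaling, by 0.32 (adjusted p = 0.0161) and 0.38 (adjusted p = 0.0193) on the log2 scale. Slc31a2, a relative of Slc31a1, was at 26.3 to 29.6 and 21.6 to 28.7 TPM and passed neither test.

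Genes that handle the same metals but are not members were read from lists. Of 29 iron genes, 23 were tested, of which 10 rose and 0 fell with TPM as deposited (limma; 12 higher and 0 lower at an unadjusted p under 0.05), with a median log2 fold change of 0.33, where 32.7% of all tested genes rose. After median-ratio scaling 4 rose and 0 fell (8 higher and 1 lower at an unadjusted p under 0.05), with a median of 0.13, where 6.92% of all tested genes rose. These 4 were the ferritin genes Fth1 and Ftl1, which store iron, Hfe, a regulator of iron sensing, and Steap3, a ferrireductase of endosomes. Fth1 was at 1258, 1341, 1195 and 1401 TPM in hSKP2-KI and 721, 751, 704 and 806 TPM in WT replicates 1 to 4. Each hSKP2-KI sample was above each WT sample. On the log2 scale Fth1 rose by 0.80 (adjusted p = 3.59e-04) as deposited and 0.53 (adjusted p = 0.00709) after median-ratio scaling. In the same order, Ftl1 rose by 0.77 (adjusted p = 0.00321) and 0.50 (adjusted p = 0.0329), Hfe by 0.66 (adjusted p = 0.00400) and 0.43 (adjusted p = 0.0195), and Steap3 by 1.46 (adjusted p = 0.00226) and 1.22 (adjusted p = 0.0102). Along with Slc40a1, ferritin mRNA was thus higher. The log2 fold change of Tfrc, the transferrin receptor gene, was 0.32 (adjusted p = 0.189), and 0.07 after median-ratio scaling (adjusted p = 0.876). Tfrc was named here after its value was seen. Of 10 tested copper genes, 5 rose and 0 fell with TPM as deposited, and 0 rose and 0 fell after median-ratio scaling, to be read against the same shares of all tested genes. At an unadjusted p under 0.05, limma gave 7 higher and 0 lower copper genes with TPM as deposited, and 1 higher and 1 lower after median-ratio scaling. Of 3 genes for manganese and Golgi metal supply, 1 rose as deposited and 1 fell after median-ratio scaling, Atp2c2, a Golgi calcium and manganese pump, by 0.36 (adjusted p = 0.0307) on the log2 scale.

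Markers of other cells moved with some of these genes. Of 8 macrophage markers, 7 rose with TPM as deposited and 0 after median-ratio scaling (limma; 6 at an unadjusted p under 0.05), and none was at 0. Their summed TPM was 221, 451, 249.5 and 226 in hSKP2-KI and 98.6, 139, 202 and 129 in WT replicates 1 to 4, with the peak in hSKP2-KI replicate 2, the mouse with the highest Slc11a1. WT replicate 3 had the highest macrophage sum and the highest Slc11a1 of the WT samples, and WT replicate 1 the lowest of both. Slc40a1, in contrast, was highest in hSKP2-KI replicates 1 and 4 and lowest in WT replicate 3, which had the highest macrophage sum of its group. The part of macrophages in both results was not tested. Erythroid markers summed to 1916 to 2963 TPM in hSKP2-KI and 663 to 2373 TPM in WT samples, and 3 of 4 tested rose with TPM as deposited and 0 after median-ratio scaling (limma; 3 at an unadjusted p under 0.05). Their part in the iron genes was not tested. Neutrophil markers, none of which passed the filter, summed to at most 5.90 TPM.

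The 4 proximal luminal markers reported (Krt4, Krt7, Psca and Ly6d), genes of epithelial cells near the urethra, all rose with TPM as deposited and 3 rose after median-ratio scaling. None was at 0. They summed to 412, 361, 298 and 487 TPM in hSKP2-KI and 103, 98.7, 109 and 98.2 TPM in WT replicates 1 to 4. Within hSKP2-KI, replicates 1 and 4 were highest for this sum and for Slc30a2 and Slc39a4. They were also highest for Krt7, at 69.6, 52.45, 58.05 and 124.9 TPM in hSKP2-KI replicates 1 to 4. In the same order, Psca was at 105.1, 48.13, 59.49 and 208.9 TPM and Ly6d at 22.58, 21.28, 16.86 and 35.67 TPM. Krt4 departed from this, at 215, 239.6, 163 and 118 TPM, lowest in replicate 4. Among WT samples the sum hardly varied while Slc30a2 ranged from 2.66 to 10.0 TPM. Fibroblast markers summed to 817 to 1444 TPM in hSKP2-KI and 445 to 647 TPM in WT samples. All 8 rose with TPM as deposited and 3 after median-ratio scaling (limma; 8 higher at an unadjusted p under 0.05). The part of these cell types in the rises of Slc30a2, Slc39a4, Slc40a1 and Mt3 was not tested. General epithelial markers summed to 1846 to 2081 and 1571 to 1759 TPM in hSKP2-KI and WT samples, and 2 of 5 rose with TPM as deposited and 0 after median-ratio scaling (limma; 0 at an unadjusted p under 0.05). Of the other lists of 5, all smooth muscle, 4 endothelial, 3 basal epithelial, 1 skeletal muscle, 0 adipocyte and 0 Schwann cell markers rose with TPM as deposited. At an unadjusted p under 0.05, limma gave 0 adipocyte markers and 1 Schwann cell marker. After median-ratio scaling, 2 smooth muscle markers and 1 endothelial marker rose (limma; 5 and 3 higher at an unadjusted p under 0.05). None of the tested basal epithelial, skeletal muscle, adipocyte and Schwann cell markers rose (limma; 1, 1, 0 and 0 higher at an unadjusted p under 0.05). Only 3 skeletal muscle and 4 Schwann cell markers were tested. The counts of all marker lists stand beside 32.7% of all tested genes that rose with TPM as deposited and 6.92% after median-ratio scaling.

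**Figure D5:**
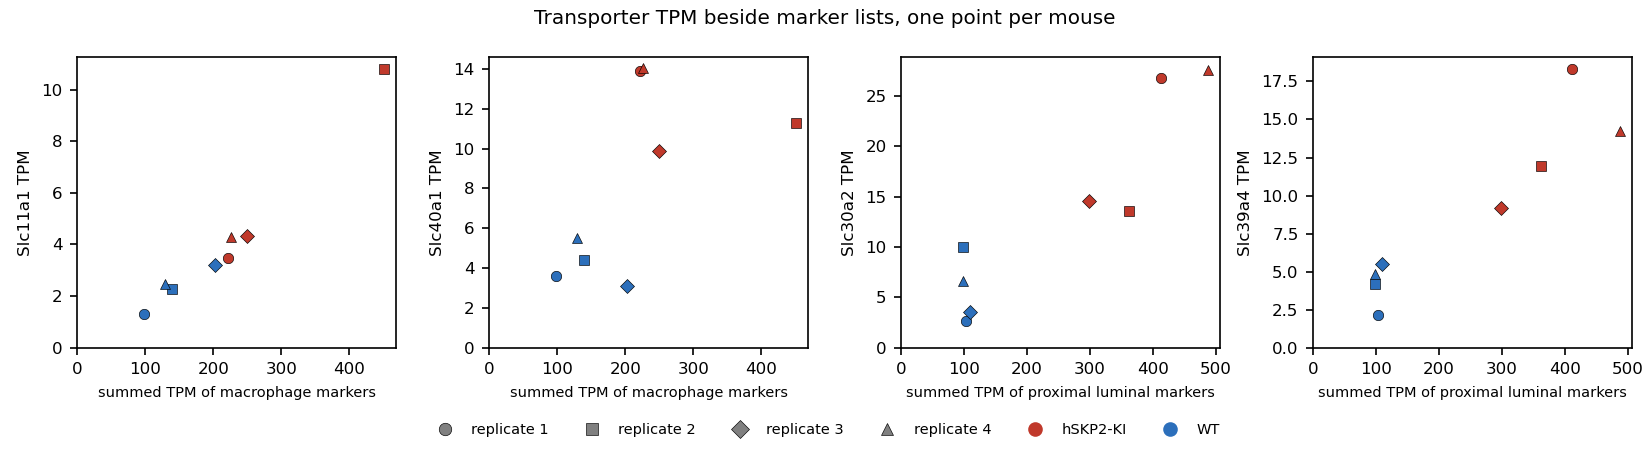
TPM of Slc11a1 and Slc40a1 against the summed TPM of 8 macrophage markers, and of Slc30a2 and Slc39a4 against the summed TPM of 4 proximal luminal markers (linear axes from 0), one point per mouse, WT in blue and hSKP2-KI in red, with shapes for the replicate number. hSKP2-KI replicate 2 stands at the top right for Slc11a1 and the macrophage sum, Slc40a1 is higher in all hSKP2-KI samples than in any WT sample, and the proximal luminal sum of the WT samples lies in a narrow band.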

How the data were processed

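Poly(A)-selected libraries were made from ventral lobes, one per mouse, for 4 hSKP2-KI and 4 WT mice. The authors trimmed and mapped paired-end reads in CLC software and deposited one table of TPM for 36333 genes. The submitters' processing notes name mm10 and GRCm38. The software version, annotation, counting options and strand are not given in the sources used here. TPM holds no read counts, so depth is unknown and no interval from counts is given. The table held 0 columns of other samples.

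Groups follow the genotype in the labels, which give no batch. Genes that reached 1 TPM in 4 or more of the 8 samples (13080 genes) were fitted as log2(TPM + 1) with limma 3.58.1 (R 4.3.3, empirical Bayes with a mean-variance trend), with Benjamini-Hochberg adjustment over all 13080 genes and a threshold of 0.05. The fit was repeated after median-ratio scaling. For members below the filter, the exact permutation test was two-sided, over the 70 assignments of mice. The procedure was tested on simulated data. Members were matched to RefSeq (GRCm38.p6) and GENCODE vM21 (GRCm38) by Entrez identifier or symbol. Python 3.11.15 and matplotlib 3.10.9 made the figures.

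The members and lists were chosen with earlier results of these data known. Values in each sample are given for members with an adjusted p under 0.05 or without overlap, in either scaling, the 8 with the highest mean TPM and the metallothioneins, and ranges for others. From the iron, copper and manganese lists, genes with an adjusted p under 0.05 after median-ratio scaling are named. Tfrc, named outside this rule, is said to be so. Mtf1, Mt4, Skp2, Pbsn and the cell type markers were listed apart and fall outside it as well. One marker of a list is not reported here and is left out of its counts and sums. The alternatives were a pseudocount of 0.1, no filter, a filter on mean TPM (5 or more), 3 other scalings, a replicate block, and leaving out each sample.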

Additional observations from a re-analysis of the deposited data

Results flagged for a closer look

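In each genotype, the highest and the lowest of the 4 samples were set against the other samples for the 27 tested members, which gives 54 groups. The gap to the nearest sample, divided by the range of the group, was above Dixon's critical value for groups of 4 in 4 of them on the TPM scale and in 1 of them on the log2(TPM + 1) scale. All 4 were in hSKP2-KI. Slc30a10, which encodes a manganese exporter, was at 25.61 TPM in replicate 3 and at 20.4 to 20.8 TPM in the other samples, with a gap over range of 0.919 on TPM and 0.911 on log2(TPM + 1), the group that passed on both scales. Mt3 was at 66.2 TPM in replicate 4 and at 11.8 to 16.7 TPM in the others (0.910 on TPM, 0.805 on the log2 scale). Slc11a1 was at 10.8 TPM in replicate 2 and at 3.47 to 4.34 TPM in the others (0.881 and 0.816). Mt2 was at 1660.0 TPM in replicate 4 and at 605 to 757 TPM in the others (0.856 and 0.778). Chance flags about 1 in 20 groups.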

How the results depend on the processing

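No value gives the depth of a library, so values under about 1 TPM carry an unknown counting error. Of the 27 tested members, all kept their direction and side of the threshold with a pseudocount of 0.1, as did 25 without the filter on low values (Slc30a7 and Slc11a1 no longer passed) and all 26 that a mean TPM of at least 5 let in. The scaling mattered most. Members that rose numbered 8 with TPM as deposited, and 4 after median-ratio scaling, 4 after quantile normalization and 4 without the 20 most abundant genes. Those that fell numbered 1, against 5, 5 and 4, and were not the same genes: Slc30a5 fell with median-ratio scaling but did not pass under the other two (adjusted p = 0.0840 and 0.0947), and Slc39a10 fell after quantile normalization (adjusted p = 0.0322) but not with median-ratio scaling (0.0672) or without the 20 most abundant genes (0.127). Of all tested genes, 4433 were called as deposited, and 1461, 1317 and 1321 under these scalings, where the median log2 fold change was 0.23, -0.01, -0.03 and 0.01. The direction turned for 9 members that passed no test with TPM as deposited. In the order of the same 3 scalings, the log2 fold change of Slc30a1 was -0.17, -0.19 and -0.16, that of Slc30a4 was -0.15, -0.15 and -0.14, that of Slc30a6 was -0.15, -0.16 and -0.13, that of Slc30a10 was -0.14, -0.13 and -0.12, that of Slc39a3 was -0.024, -0.0416 and -0.00448, that of Slc39a7 was -0.16, -0.13 and -0.14, that of Slc39a9 was -0.18, -0.14 and -0.16, that of Slc39a14 was -0.17, -0.23 and -0.16 and that of Slc31a2 was -0.13, -0.11 and -0.11. Leaving out 1 sample gave 5 to 9 higher members, 1 to 3 lower members and 2993 to 4677 genes in all. WT replicate 1 was the sample without which 5 rose, and hSKP2-KI replicate 4 that without which 3 fell, Mt1 and Mt2 being added. Without WT replicate 2, Slc39a13 rose as well. Slc30a5 then ranged from -0.0795 to 0.0698 and Slc39a11 from -0.0678 to 0.0125, both crossing 0. After median-ratio scaling, 3 to 4 members rose and 4 to 5 fell with a sample left out, a check added after seeing the data.

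The labels do not say whether same-numbered mice were paired. Deviations of same-numbered samples from their group means correlated at 0.221, -0.109, 0.167 and -0.0142 across genes, values of both signs that cannot settle this. With a replicate block, 9 members rose and 1 fell, Slc39a13 being added (adjusted p = 0.0399), and 5128 genes were called in all. After median-ratio scaling the block left 4 higher and 4 lower members.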
